A study of Homo sapiens with 22 samples.

Results

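HN-6 is a human squamous carcinoma line of head and neck origin. In a SMYD3 knockout clone of it, 59 of the 17402 genes listed in the knockout comparison had nearly lost their counts. For some of the 59, as given below, the count cannot be kept apart from that of an overlapping gene. All 59 reached a set floor in the mean of the parental libraries. They were chosen from the deposited normalised counts as the genes with a parental mean of at least 100 and a knockout mean of at most 5% of it, and 12568 genes reached that parental mean. The knockout values therefore describe how the genes were picked and carry no test. The same genes were then followed in 3 other comparisons, which the choice did not use: a SMYD3 siRNA, a SMYD3 antisense oligonucleotide (ASO) and a UHRF1 siRNA.

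All cells, controls included, had received human interferon-β at 1000 U/ml for 24 h before collection. The groups were the knockout clone 5-3 (3 libraries) and parental HN-6 (3), HN-6 with a SMYD3 siRNA (3) and with a control siRNA (3), HN-6 with ASO 081 against SMYD3 (2) and with PBS (2), and HN-6 with a UHRF1 siRNA (3) and with its own control siRNA (3). Each siRNA or ASO exposure lasted 72 h. The knockout is a single clone, so what came with the loss of SMYD3 and what came with the choice of that clone cannot be told apart.

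SMYD3 is a lysine methyltransferase of the SET and MYND domain family, and UHRF1 is the protein that brings the maintenance DNA methyltransferase to newly copied DNA. A gene can fall silent in a clone through loss of an activator, through repressive chromatin or DNA methylation, or because the cell that founded the clone already differed from its neighbours. Polyadenylated RNA counted per gene measures none of these directly.

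Library depth, as reads in genes, was 24777802 to 47690298 for the knockout comparison (recovered from the deposited values), 32441991 to 54121262 for the SMYD3 siRNA, 30792923 to 32045158 for the ASO and 57588142 to 62921144 for the UHRF1 siRNA, controls included. Mitochondrial genes took 4.83% to 4.89% of the reads in the knockout clone and 14.95% to 15.7% in parental cells. Scaled to nuclear reads, with the parental floor scaled alike, the same limits pick 87 genes in place of 59, and the knockout values below keep the deposited scale unless given as CPM. SMYD3 itself averaged 93.6 ± 18.5 normalised counts in the knockout clone and 321.9 ± 18.3 in parental cells (SD, n = 3 each), so transcripts of the targeted gene were still counted in the clone. SMYD3 stood at 18.9% of control with its siRNA and at 17.3% of PBS with the ASO, and UHRF1 at 3.45% of control with its siRNA. UHRF1 also averaged 3.28 ± 0.61 CPM (reads per 1000000 reads in nuclear genes) with the SMYD3 siRNA and 10.6 ± 1.5 CPM with the control siRNA (SD, n = 3 each), whereas it averaged 58.5 ± 2.0 CPM with the ASO and 45.7 ± 1.3 CPM with PBS (SD, n = 2 each). The summed level of 6 squamous epithelial markers was 1381 to 4118 CPM across all libraries, and CDH1, KRT5, KRT17, TP63 and EPCAM were present in every group. KRT14, the remaining marker of that list, was low throughout, at 0.194 to 1.91 CPM.

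The promoter windows of 5 of the genes are printed here because their RNA carries the results that follow: the head-to-head collagen pair COL4A3 and COL4A4, which were lost together; KCTD12, which had no read in the clone; H2AFY2, which fell most with the SMYD3 siRNA; and SMO, which fell in all 3 other comparisons. Each window runs from 250 bases before to 50 bases after the RefSeq gene start on GRCh38.p14, 5′ to 3′ on the strand of the gene. Capitals mark CCCTCC, a motif that SMYD3 has been reported to bind, or its reverse complement GGAGGG.
COL4A3 (chr2:227164374-227164673, plus strand): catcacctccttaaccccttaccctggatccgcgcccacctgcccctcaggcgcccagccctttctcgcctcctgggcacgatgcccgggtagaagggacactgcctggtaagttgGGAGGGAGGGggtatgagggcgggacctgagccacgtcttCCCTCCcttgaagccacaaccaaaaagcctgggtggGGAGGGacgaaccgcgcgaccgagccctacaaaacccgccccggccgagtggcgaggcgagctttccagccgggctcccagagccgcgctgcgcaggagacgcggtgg
COL4A4 (chr2:227164156-227164455, minus strand): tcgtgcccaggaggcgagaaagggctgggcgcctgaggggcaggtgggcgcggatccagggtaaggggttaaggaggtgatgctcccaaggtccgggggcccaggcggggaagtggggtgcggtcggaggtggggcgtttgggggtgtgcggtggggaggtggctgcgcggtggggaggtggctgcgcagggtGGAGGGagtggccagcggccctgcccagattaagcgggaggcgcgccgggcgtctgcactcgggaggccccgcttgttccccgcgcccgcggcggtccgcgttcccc
KCTD12 (chr13:76886356-76886655, minus strand): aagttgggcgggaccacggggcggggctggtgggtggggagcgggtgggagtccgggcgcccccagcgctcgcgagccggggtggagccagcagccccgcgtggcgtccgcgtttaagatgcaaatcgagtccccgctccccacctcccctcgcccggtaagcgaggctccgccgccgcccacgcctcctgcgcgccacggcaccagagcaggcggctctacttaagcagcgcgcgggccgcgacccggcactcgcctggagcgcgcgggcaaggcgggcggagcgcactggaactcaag
H2AFY2 (chr10:70052596-70052895, plus strand): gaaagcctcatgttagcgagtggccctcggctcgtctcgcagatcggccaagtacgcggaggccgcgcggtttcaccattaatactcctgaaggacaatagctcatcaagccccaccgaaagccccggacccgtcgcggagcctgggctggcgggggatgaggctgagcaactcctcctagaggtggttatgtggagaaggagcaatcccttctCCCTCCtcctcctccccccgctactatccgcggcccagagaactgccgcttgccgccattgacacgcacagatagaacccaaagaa
SMO (chr7:129188383-129188682, plus strand): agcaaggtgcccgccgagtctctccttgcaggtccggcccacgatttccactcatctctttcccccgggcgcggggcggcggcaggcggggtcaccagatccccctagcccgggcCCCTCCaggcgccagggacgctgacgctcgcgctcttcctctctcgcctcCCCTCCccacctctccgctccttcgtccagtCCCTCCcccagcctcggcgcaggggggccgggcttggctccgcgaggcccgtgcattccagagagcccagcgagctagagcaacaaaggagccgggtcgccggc
The 2 collagen windows overlap by 82 bases. The motif, read on either strand, occurs in all of these windows except that of KCTD12, where its letters were not found. It also occurs in 45.7% of the 35116 promoter windows of the same length, so its presence marks nothing particular to these genes. RefSeq windows matched only 33 of the 59 genes, or 55.9%, so a comparison of GC content, CpG content or motifs over the whole set is void and is not given.

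By parental mean, the 4 most abundant of the lost genes were ALDH1A1, H19, AL691482.3 and FARP1. ALDH1A1, which makes retinoic acid from retinaldehyde, had 44.6, 61.8 and 53.4 normalised counts in the knockout libraries, against 3210, 2842 and 3153 in the parental libraries. H19, the imprinted noncoding RNA expressed from the maternal allele, had 7.93, 23.1 and 19.1 normalised counts in the clone, against 1228, 919 and 1224 in parental cells. AL691482.3, a noncoding RNA, averaged 37.1 ± 6.38 normalised counts in the clone and 925 ± 20.4 in parental cells (SD, n = 3 each). FARP1, a guanine nucleotide exchange factor of small GTPases, had 8.92, 10.4 and 7.63 normalised counts in the clone, against 908, 913 and 890 in parental cells. On GRCh38 these genes span chr9:72900662-73080442 on the minus strand (ALDH1A1), chr11:1995176-2001470 on the minus strand (H19) and chr13:98142562-98455176 on the plus strand (FARP1). ALDH1A1 stood at 1.74%, H19 at 1.49% and FARP1 at 0.995% of its parental mean. PLXDC1, a transmembrane plexin-domain protein, stood at 3.43%, UGT1A7, a glucuronosyltransferase, at 0.586%, ACSS3, a mitochondrial short-chain acyl-CoA synthetase, at 0.4996%, CP, the copper-carrying ferroxidase ceruloplasmin, at 0.502%, and RAB26, a vesicle GTPase, at 4.61%.

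Over the 59 genes the parental mean ran from 100.4 to 3068 normalised counts with a median of 176.6, and the knockout mean ran from 0% to 4.75% of it with a median of 2.24%. In each of the 59 the highest knockout library lay below the lowest parental library, which the choice of the genes largely ensures. The parental libraries agreed within a median coefficient of variation of 9.87%, and the exceptions above 30% were TBC1D3H and AC120057.2. TBC1D3H, a member of a family of near-identical gene copies, had 440.8, 203.3 and 204.8 normalised counts in parental cells. AC120057.2 had 293.8, 0.880 and 137.1 there, so its place in the set rests on 2 of 3 parental libraries.

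**Figure D1:**
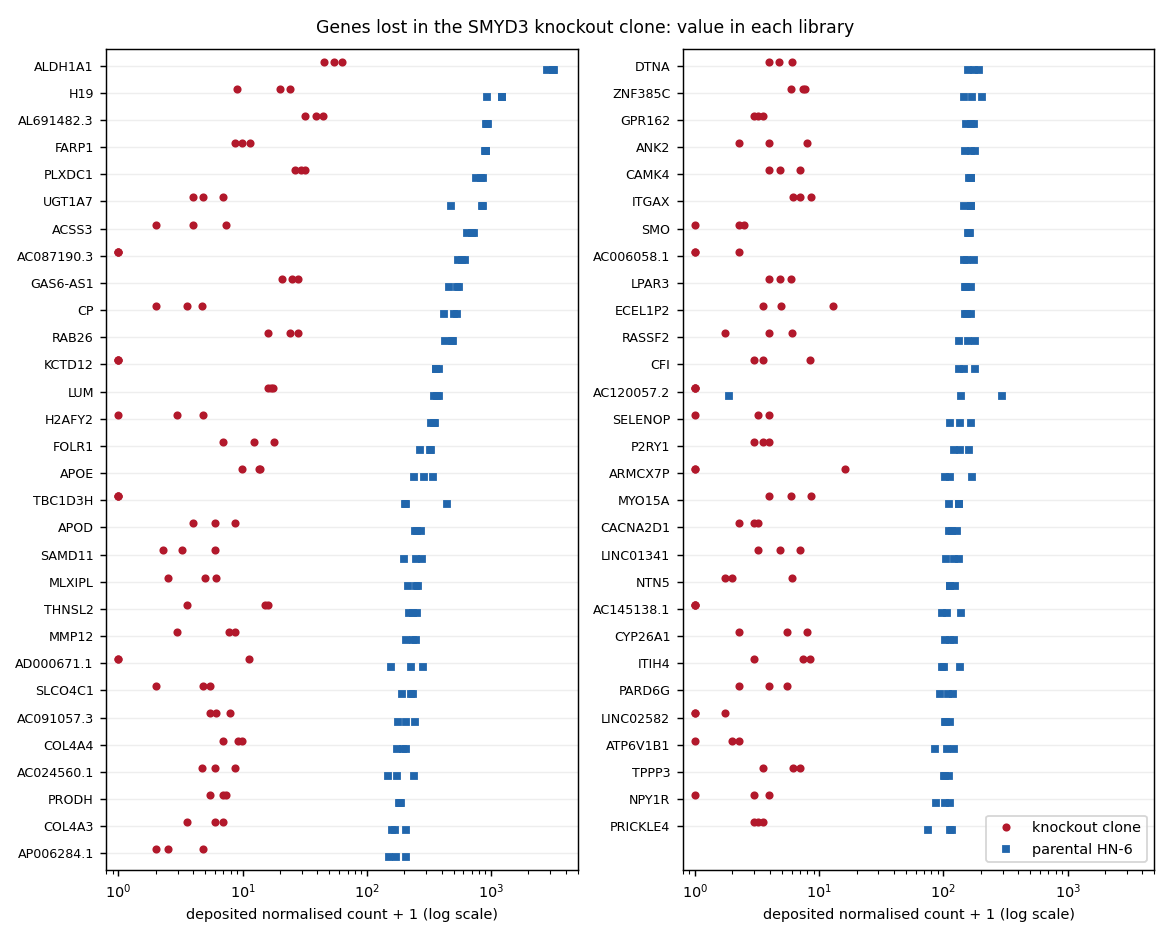
Deposited normalised count plus 1 (log axis) of each of the 59 genes in the 3 knockout libraries (red circles) and the 3 parental libraries (blue squares), ordered by parental mean. Parental means run from 100.4 to 3068, and no knockout library reaches a parental library of the same gene, which the choice of the genes largely ensures.

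No read was counted in any knockout library for 5 genes. KCTD12, an auxiliary subunit of GABA-B receptors, had 357.9, 359.9 and 382.5 normalised counts in parental cells. Set against 3 reads over the whole knockout group, KCTD12 was at least 366-fold lower in the clone. On the same bound AC087190.3 was at least 580.1-fold, TBC1D3H at least 282-fold, AC120057.2 at least 143.6-fold and AC145138.1 at least 113-fold lower. The bounds cover counting error only. The limits of the choice fell within a continuum: GAS6-AS1 at 4.59%, RAB26 at 4.61% and ITIH4 at 4.75% lay just inside the 5% limit, and NTF4 at 5.18%, ITGA4 at 5.18% and CDH23 at 5.24% just outside it. The lowest parental means among the 59 were those of PRICKLE4 (100.4), NPY1R (100.6) and TPPP3 (104.1), while SLITRK1 (95.7), RNF112 (96.2) and CFHR3 (97.0) missed the floor.

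Protein-coding genes made up 46 of the 59 (78.0%, against 92.0% of the 12560 annotated genes that reached the parental mean of 100, called expressed below), noncoding RNAs 10 (16.9%, against 5.87%) and pseudogenes 3 (5.08%, against 2.17%). The noncoding RNAs were H19, AL691482.3, AC087190.3, GAS6-AS1, AC091057.3, AC024560.1, AP006284.1, AC006058.1, LINC01341 and LINC02582, and the pseudogenes were ECEL1P2, ARMCX7P and AC145138.1. By known role, 11 coding genes make secreted or matrix proteins: CP, LUM, APOE, APOD, MMP12, COL4A4, COL4A3, CFI, SELENOP, NTN5 and ITIH4. Surface receptors and adhesion proteins numbered 8 (PLXDC1, FOLR1, GPR162, ITGAX, SMO, LPAR3, P2RY1 and NPY1R), and channels, transporters or pumps 3 (SLCO4C1, CACNA2D1 and ATP6V1B1). Metabolic enzymes and their relatives numbered 6: ALDH1A1 and CYP26A1, which make and break down retinoic acid, and UGT1A7, ACSS3, THNSL2 and PRODH. Another 12 act inside the cell in signalling, scaffolds or the cytoskeleton or belong to such families (FARP1, RAB26, KCTD12, TBC1D3H, DTNA, ANK2, CAMK4, RASSF2, MYO15A, PARD6G, TPPP3 and PRICKLE4), and 4 act on chromatin or transcription or carry the domains of such proteins (H2AFY2, SAMD11, MLXIPL and ZNF385C). The coding genes AD000671.1 and AC120057.2 have clone-based names only. None of the 36 expressed interferon-stimulated genes on the list used here was in the set, and neither was any of 109 ribosomal protein, 16 keratin, 23 HOX or 21 cancer-testis genes. The set makes up 0.470% of the expressed genes, a share at which each of these lists would hold fewer than 1, so these zeros say little about the set.

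For some of these genes the count cannot be kept apart from that of another gene on the same strand. At least 50% of the exonic bases of 7 of them lie in another same-strand gene of GENCODE release 29. AC087190.3 lies wholly inside exons of C16orf72, which stood at 200.2% of parental in the clone, and AD000671.1 wholly inside LIN37 (79.5%) and PSENEN (50.1%). AC120057.2 lies wholly inside GABARAP (59.3%) and CTDNEP1 (129%). AL691482.3 shares 67.3% of its exonic bases with ELF3, an epithelial transcription factor that itself stood at 22.0% of parental. The others were ITIH4, ATP6V1B1 and PRICKLE4. UGT1A7 shares 40.6% of its exonic bases with UGT1A6, which stood at 99.3% of parental, and CFI shares 32.0% with AC126283.2, at 2.66%. In contrast, 24 of the 59, among them ALDH1A1, KCTD12, LUM and COL4A4, share no exonic base with any other annotated gene.

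The genes were scattered over the genome. They lay on 20 chromosomes, with at most 6 on any of them (chromosomes 2 and 3) and none on chromosomes 8, 14 or 21. Chromosome 18 held 3, or 1.73% of its 173 expressed genes, and chromosome 13 held 3, or 1.42% of its 211. The only neighbours in gene order were COL4A4 and COL4A3, chains of basement membrane collagen IV that are transcribed head to head on chromosome 2, with 112 bases between the GENCODE genes and 419 bases between the RefSeq starts that set the windows printed above. COL4A3 had 4.96, 5.95 and 2.54 normalised counts in the clone, against 207.2, 168.1 and 159.1 in parental cells. COL4A4 had 5.95, 8.18 and 8.90 in the clone, against 204.7, 172.5 and 195.5 in parental cells. Expressed genes on either side did not share that level: RHBDD1 stood at 212.3% and IRS1 at 185.2% of parental on the COL4A4 side, MFF at 66.1% and AGFG1 at 155.9% on the COL4A3 side. The lowest of the expressed neighbours was the clone-named AC010735.2, beyond COL4A4, at 30.6%.

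For KCTD12 the nearest expressed neighbours were also low. LMO7, whose start lies 1259732 bases away, stood at 7.70% of parental, and the pseudogene DHX9P1, on the other side, at 12.9%. MYCBP2, beyond DHX9P1, stood at 273%. Some other genes of the set also had a low neighbour. GOLGA8H stood at 8.47% beside AC091057.3 and C17orf113 at 15.3% beside ZNF385C, with AC091057.6 at 156.5% and NKIRAS2 at 123% on their other sides. On either side of FARP1, IPO5 stood at 224% and STK24 at 127%. LINC01341 was the gene of the set closest to the targeted locus, 268.7 kb from SMYD3 on chromosome 1, and had 3.998 ± 1.86 normalised counts in the clone, against 118.3 ± 14.4 in parental cells (SD, n = 3 each). SCCPDH, on its SMYD3 side, stood at 88.8% of parental and AHCTF1, on the other side, at 166%. Over the 115 nearest expressed neighbours that are not in the set, the median was 99.3% of parental and 21.7% were below 50% of parental, beside a median of 109% and a share of 14.8% over all expressed genes. Above 2 times parental were 10.4% of these neighbours and 13.9% of all expressed genes. The neighbours include genes that share exons with a gene of the set, such as ELF3 at 22.0% and C16orf72 at 200.2%, and these were not left out.

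**Figure D2:**
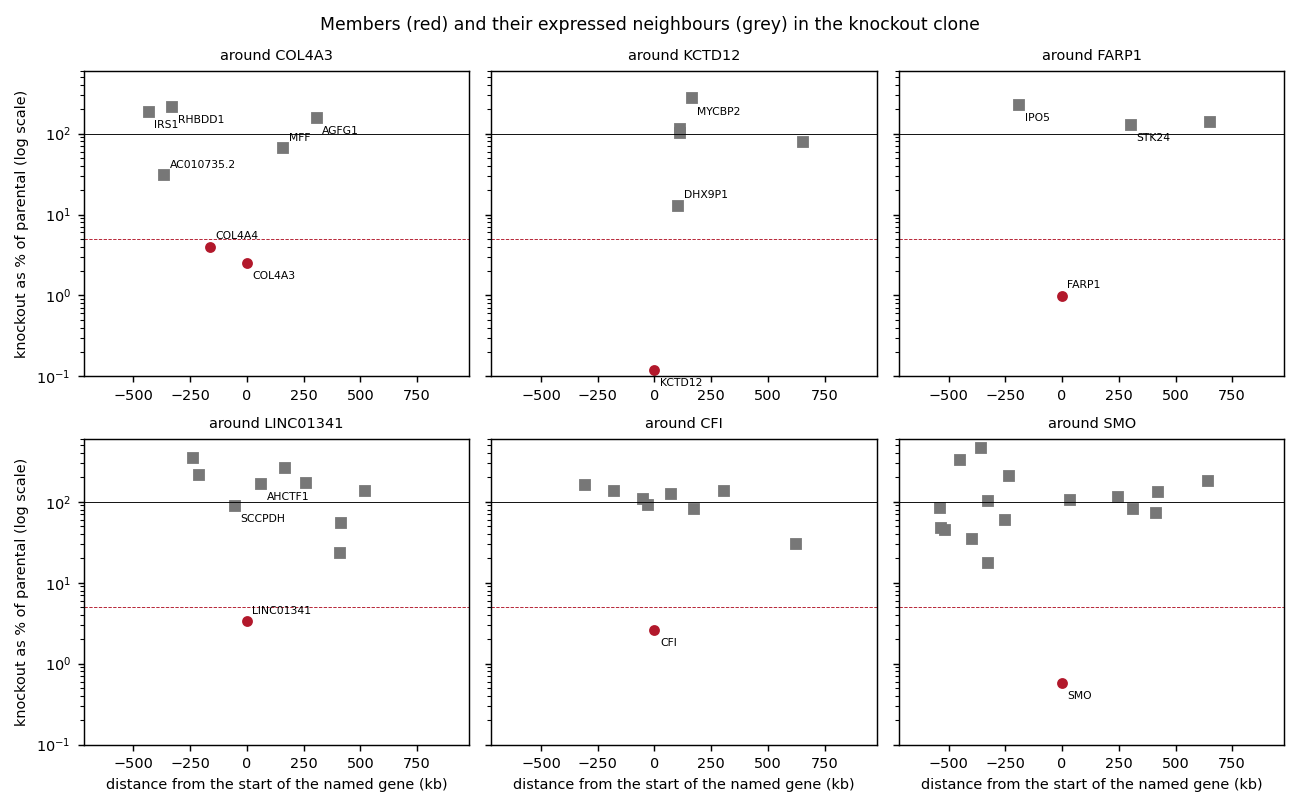
Knockout mean as a percentage of the parental mean (log axis) for genes around COL4A3, KCTD12, FARP1, LINC01341, CFI and SMO, by distance in kb from the start of the named gene. Red circles are genes of the set, grey squares other expressed genes (named where the text gives their value), the solid line is 100% and the dashed line 5%; KCTD12, at 0, is drawn near the lower edge, and no grey square falls below the dashed line.

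The other 3 tables show how far these genes were expressed in HN-6 controls at other times. Set across tables that were normalised separately, CPM can be compared only roughly. In the control siRNA group of the SMYD3 experiment the 59 genes stood at a median of 96.1% of their parental CPM (99.0% over all expressed genes), in the PBS group at 77.9% (102.3%), and in the control siRNA group of the UHRF1 experiment at 17.0% (80.0%). At most 5% of the parental level was reached by 11 of the 59 (18.6%) in the control siRNA group of the SMYD3 experiment, by 9 (15.3%) in the PBS group and by 22 (37.3%) in the control siRNA group of the UHRF1 experiment, beside 2.46%, 2.48% and 3.07% of all expressed genes. The HN-6 cells of these control groups had received no SMYD3 or UHRF1 reagent. The parental libraries that serve as the reference here also served to pick the genes. A gene with a high parental value entered the set more easily, and would then stand lower in any other control. How much of the gap to all expressed genes comes from that choice was not tested, and those genes were not matched to the set by level.

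Among the 49 genes of the set with at least 1 CPM in some of these 3 control means, the lowest and highest control differed by a median of 2.12 on the log2 scale (after adding 0.1 CPM). The same median was 0.90 over 6273 genes with a parental mean from 100 to 1000. The lowest control was the UHRF1 experiment's in 41 of the 49 (83.7%, against 56.5% of those 6273). CP spanned most: its level was 364, 373 and 351 CPM with control siRNA in the SMYD3 experiment, 34.5 and 31.8 CPM with PBS, 3.24, 1.59 and 1.80 CPM with control siRNA in the UHRF1 experiment, and 20.1, 16.0 and 19.1 CPM in parental cells. ALDH1A1 ran from 90.6 to 93.3 CPM, from 49.7 to 54.2 CPM and from 2.20 to 2.41 CPM in the same 3 control groups, against 109 to 122 CPM in parental cells. H19 ran from 0.0670 to 0.670 CPM, from 14.5 to 17.1 CPM and from 0.113 to 0.220 CPM there, against 35.1 to 46.9 CPM in parental cells. For CP and ALDH1A1 the control groups of different experiments lay further apart than the libraries within any of them, whereas for H19 the control libraries of the SMYD3 siRNA experiment enclosed those of the UHRF1 experiment.

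Not all of the 59 could be seen elsewhere. In all 3 other control groups 9 genes stood at most at 5% of the parental level: UGT1A7, AC087190.3, TBC1D3H, AD000671.1, AC120057.2, ARMCX7P, AC145138.1, ITIH4 and PRICKLE4. AC087190.3, with 23.6, 20.6 and 22.5 CPM in parental cells, was listed at 0 in all 16 libraries of the other 3 tables, as was AC120057.2. TBC1D3H and AD000671.1 stayed below 0.1 CPM in every control library. How reads were shared among overlapping or copied genes in each table is not given in the sources used here, and its part in these levels was not tested. At the other end, 31 of the 59 had at least 1 CPM in every control library of the other tables.

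**Figure D3:**
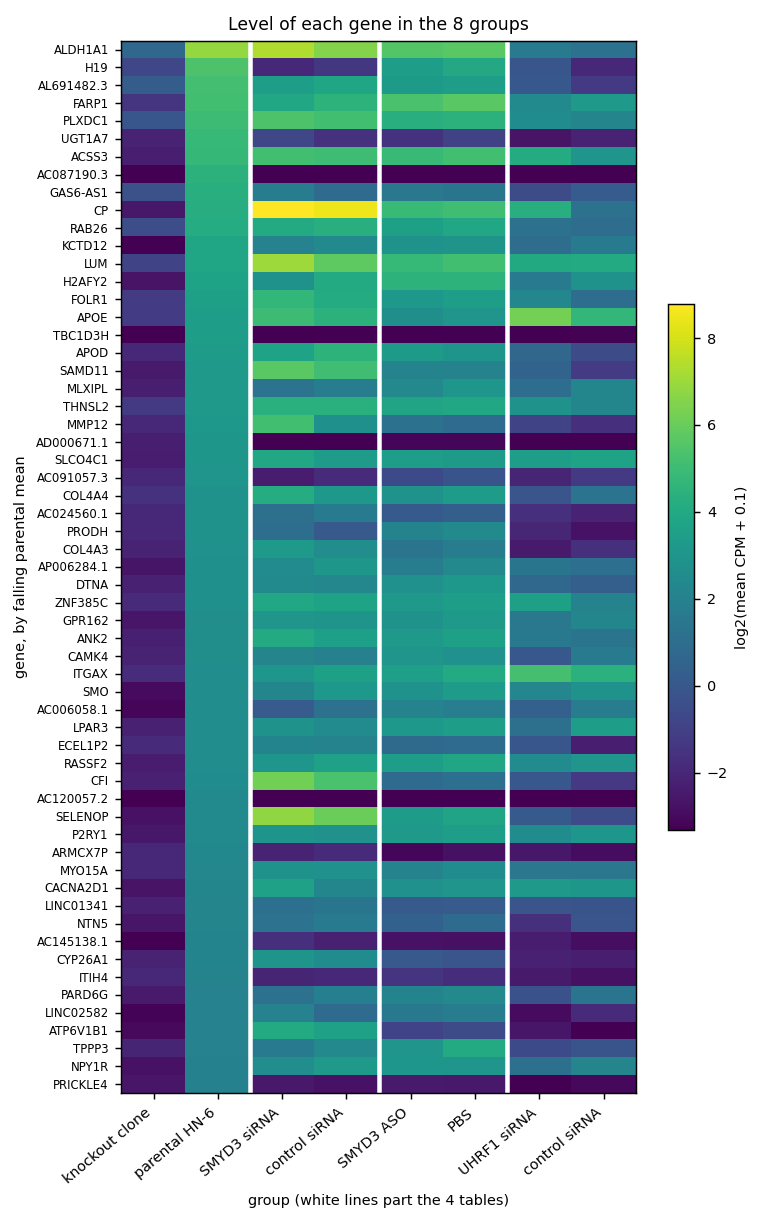
Mean level of each of the 59 genes, as log2 of CPM plus 0.1 (colour), in the 8 groups, with white lines between the 4 tables and genes ordered by parental mean. The knockout column is dark throughout; among the other columns, those of the UHRF1 experiment are the darkest for ALDH1A1, CFI and SELENOP, and CP is brightest in the SMYD3 siRNA table.

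With the SMYD3 siRNA the set split in both directions. Of the 59 genes, 49 passed the filter on low counts; 22 of these rose (44.9%, where 24.2% of all 18983 tested genes did), 14 fell (28.6%, against 24.4%) and 13 were not called (edgeR quasi-likelihood test, Benjamini-Hochberg adjusted p below 0.05). In either direction 36 of the 49 were called, where 48.5% of all tested genes were. Every siRNA library lay above every control library in 24 of the 49 (27.8% of all tested genes) and below in 14 (29.0%). The median log2 fold change was 0.17, against -0.016 over all tested genes. The deepest fall, that of H2AFY2, left 42.2% of the control level, so no tested gene of the set approached the 5% that defined it in the clone.

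The 4 largest rises were those of MMP12, CACNA2D1, LUM and LINC02582. MMP12, the macrophage metalloelastase, had 38.3, 35.2 and 31.2 CPM with the SMYD3 siRNA, against 8.12, 5.61 and 6.04 CPM with control siRNA. Its log2 fold change was 2.39 ± 0.13 (SE), with an edgeR adjusted p of 5.68e-09. LUM, the collagen-binding proteoglycan lumican, had 127.7, 141.6 and 120.6 CPM with the SMYD3 siRNA, against 48.4, 57.5 and 57.7 CPM with control siRNA (log2 fold change 1.25 ± 0.09, adjusted p 7.71e-08). COL4A4 had 18.6, 19.998 and 16.0 CPM with the SMYD3 siRNA, against 7.43, 10.3 and 8.54 CPM with control siRNA (1.06 ± 0.12, adjusted p 5.77e-06), and COL4A3 rose with it (0.64 ± 0.14, adjusted p 0.00201). Of the 11 secreted or matrix genes, 8 were called higher, 1 lower (APOD), 1 was not called and 1 was not tested. Of all tested genes, 24.2% were called higher and 24.4% lower. The call of CP, 1 of the 8, was lost without SMYD3 siRNA replicate 1 or control replicate 3. The calcium channel subunit CACNA2D1 (1.39 ± 0.10, adjusted p 1.17e-07) and the noncoding RNA LINC02582 (1.17 ± 0.19, adjusted p 0.000156) rose as well. ALDH1A1, at 165.1 ± 16.2 CPM with the SMYD3 siRNA and 92.0 ± 1.3 CPM with control siRNA (SD, n = 3 each), rose by a log2 fold change of 0.84 ± 0.08 (adjusted p 1.22e-06).

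LUM is also on the list of 5 fibroblast markers used here. Their summed level was 237.4 to 282.6 CPM with the SMYD3 siRNA and 145.2 to 169.9 CPM with control siRNA, and 15.6 to 17.8 CPM in the knockout clone and 73.9 to 79.1 CPM in parental cells. Most of the siRNA difference was LUM itself, at 121 to 142 CPM against 48.4 to 57.7 CPM. COL1A1 stood at 101.2 to 129.6 CPM against 88.3 to 106.6 CPM there. In the clone COL1A1 stood at 12.6 to 14.4 CPM, against 55.8 to 59.5 CPM in parental cells, and the low LUM follows from how the set was picked. COL1A2 and DCN of that list were below 1 CPM wherever they were listed. With the UHRF1 siRNA the same sum was 503.6 to 578.0 CPM, against 118.6 to 119.6 CPM with control siRNA, and with the ASO 94.6 to 112.0 CPM, against 118.9 to 120.6 CPM with PBS. The higher sum with the UHRF1 siRNA was that of COL1A1, at 477 to 553 CPM against 81.2 to 83.5 CPM. PDGFRB went the other way, at 7.98 to 9.20 CPM against 19.1 to 20.5 CPM. LUM overlapped, at 15.9 to 17.3 CPM against 16.0 to 18.5 CPM. Of the 5 leukocyte markers, PTPRC and CD3E were below 1 CPM wherever listed, and the sum ran from 15.1 to 18.1 CPM with the SMYD3 siRNA, against 13.0 to 14.9 CPM with control siRNA, and from 10.4 to 11.9 CPM with the UHRF1 siRNA, against 2.71 to 3.76 CPM with its control. The sum of 5 endothelial markers was 7.65 to 8.07 CPM with the SMYD3 siRNA, against 13.4 to 15.8 CPM with control siRNA, and 22.6 to 23.7 CPM with the UHRF1 siRNA, against 8.12 to 8.92 CPM with its control. The lower sum with the SMYD3 siRNA was that of CDH5, at 4.35 to 4.79 CPM against 11.1 to 13.6 CPM. PECAM1 went the other way, at 2.01 to 2.16 CPM against 0.520 to 0.957 CPM. In the clone the endothelial sum was 1.09 to 1.87 CPM, against 5.64 to 6.99 CPM in parental cells, and KDR and CLDN5 of that list were below 1 CPM wherever listed. The part of these markers in the changes of the genes described here was not tested. All libraries came from the HN-6 line or a clone of it, so these marker levels do not count fibroblasts, leukocytes or endothelial cells. In bulk RNA, a change in the share of cells that express a gene and a change in its RNA per cell cannot be told apart.

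The falls with the SMYD3 siRNA were led by a histone variant and a noncoding RNA. H2AFY2, which encodes macroH2A2, a histone found in silenced chromatin, had 7.14, 7.01 and 7.30 CPM with the SMYD3 siRNA, against 17.2, 17.7 and 15.9 CPM with control siRNA. Its log2 fold change was -1.24 ± 0.09, with an edgeR adjusted p of 1.14e-07. The noncoding RNA AC006058.1 had 1.32, 0.905 and 0.771 CPM with the SMYD3 siRNA, against 2.03, 2.04 and 2.77 CPM with control siRNA (-1.21 ± 0.22, adjusted p 0.000366). SMO, the Hedgehog signal transducer, had 4.44, 4.99 and 4.58 CPM with the SMYD3 siRNA, against 8.28, 9.86 and 7.85 CPM with control siRNA (-0.88 ± 0.12, adjusted p 2.53e-05). APOD, a lipocalin that carries small lipids, had 12.8, 13.1 and 12.5 CPM with the SMYD3 siRNA, against 18.5, 24.2 and 24.2 CPM with control siRNA (-0.80 ± 0.11, adjusted p 2.34e-05). In all 4 the groups did not overlap. KCTD12, absent from the clone, averaged 4.07 ± 0.88 CPM with the SMYD3 siRNA and 5.19 ± 0.29 CPM with control siRNA (SD, n = 3 each) and was not called (adjusted p 0.0549).

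With the ASO the called genes of the set moved in a single direction. Of 51 tested, 14 fell (27.5%, where 10.3% of all 18232 tested genes did), none rose (11.4% of all did) and 37 were not called; at an unadjusted p below 0.05, edgeR gave 21 lower and 1 higher, APOD, and DESeq2 called none higher after adjustment. Calls in either direction thus covered 14 of 51, where 21.7% of all tested genes were called. Without regard to the test, both ASO libraries lay below both PBS libraries in 32 of the 51 (31.2% of all tested genes) and above in 6 (30.6%). The median log2 fold change was -0.29, against -0.0043 over all tested genes. The count of falls depended on the tool and on single libraries: DESeq2 called 9, and without ASO replicate 1 edgeR called 25, with a lone ASO library assumed to vary like the PBS libraries. With no filter on low counts, without PBS replicate 1 and without ASO replicate 2, 1 gene was called higher.

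TPPP3, a tubulin-binding protein, fell most with the ASO, at 9.14 and 6.83 CPM with the ASO, against 17.5 and 16.3 CPM with PBS (log2 fold change -1.08 ± 0.12, edgeR adjusted p 5.73e-05). MLXIPL, the glucose-responsive transcription factor ChREBP, had 5.12 and 5.12 CPM with the ASO, against 8.65 and 7.63 CPM with PBS (-0.67 ± 0.12, adjusted p 0.00227). ITGAX, the integrin chain CD11c, had 11.3 and 11.3 CPM with the ASO, against 17.1 and 16.3 CPM with PBS (-0.56 ± 0.09, adjusted p 0.00072). H19 had 12.5 and 9.27 CPM with the ASO, against 17.1 and 14.5 CPM with PBS (-0.53 ± 0.13, adjusted p 0.0105). In these 4 genes no ASO library reached a PBS library. H2AFY2, the deepest fall with the SMYD3 siRNA, had 23.9 and 21.8 CPM with the ASO, against 21.5 and 23.2 CPM with PBS, and was not called (0.031 ± 0.079, adjusted p 0.821).

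The 49 genes of the set tested with the SMYD3 siRNA were all tested with the ASO as well. Both SMYD3 depletions lowered 6 of these 49: FARP1, MLXIPL, ITGAX, SMO, RASSF2 and TPPP3. Of all 17275 genes tested in both, 2.81% were called lower in both. No gene of the set was called higher in both. LUM, COL4A4, ANK2 and SELENOP were called higher with the SMYD3 siRNA and lower with the ASO. COL4A4, for example, averaged 7.15 ± 0.07 CPM with the ASO and 9.89 ± 0.24 CPM with PBS (SD, n = 2 each; log2 fold change -0.47 ± 0.11, edgeR adjusted p 0.00744), a fall that DESeq2 did not call (adjusted p 0.0566). The fall of LUM with the ASO (-0.31 ± 0.08, adjusted p 0.0167) was not called without ASO replicate 2 (adjusted p 0.113). The fall of SELENOP, a selenium carrier (-0.43 ± 0.14, adjusted p 0.0476), was not called with DESeq2, without ASO replicate 2 or without PBS replicate 1, and that of the membrane scaffold ANK2 (-0.35 ± 0.10, adjusted p 0.0279) with DESeq2 or without any of PBS replicate 1, PBS replicate 2 and ASO replicate 1. The differences between the 2 depletions were not tested as such.

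**Figure D4:**
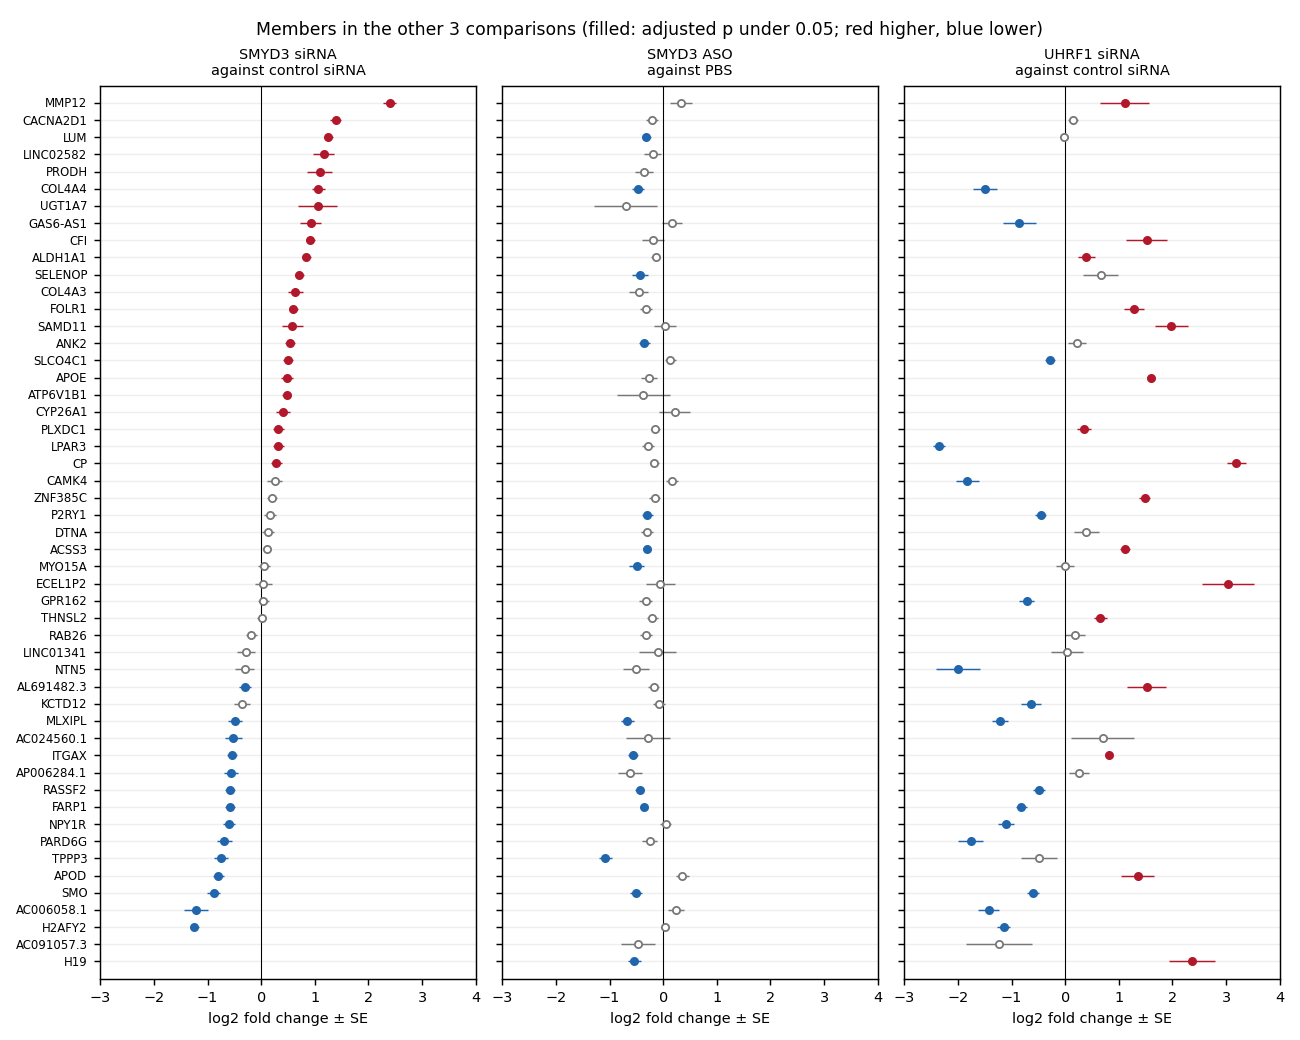
Log2 fold change with its standard error (edgeR) of the 51 genes of the set tested in at least 1 of the other 3 comparisons, ordered by the SMYD3 siRNA. Filled points have an adjusted p below 0.05, red higher and blue lower, and open grey points were not called; the counts are 22 higher and 14 lower with the SMYD3 siRNA, 0 and 14 with the ASO, and 16 and 17 with the UHRF1 siRNA.

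With the UHRF1 siRNA changes were larger and went both ways. Of 45 tested genes of the set, 16 rose (35.6%, where 32.0% of all 18346 tested genes did), 17 fell (37.8%, against 32.7%) and 12 were not called, so 33 of 45 were called where 64.7% of all were. Every siRNA library lay above every control library in 18 (33.5% of all tested genes) and below in 17 (34.6%). Both shares of calls were near the background. The size of the changes was not: 46.7% of the tested genes of the set were called with an absolute log2 fold change of at least 1, beside 17.8% of all tested genes. The median log2 fold change was 0.15, against -0.01 over all. The controls of this experiment held little RNA of many of these genes, as described above, so several of the largest fold changes concern levels near or below 1 CPM.

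The 4 largest falls were those of LPAR3, NTN5, CAMK4 and PARD6G. LPAR3, a lysophosphatidic acid receptor, had 2.01, 2.17 and 2.20 CPM with the UHRF1 siRNA, against 11.0, 10.7 and 11.0 CPM with control siRNA (log2 fold change -2.35 ± 0.12, edgeR adjusted p 3.46e-24). NTN5, a netrin-like secreted protein, had 0.197, 0.251 and 0.169 CPM with the UHRF1 siRNA, against 1.07, 0.812 and 0.599 CPM with control siRNA (-1.996 ± 0.41, adjusted p 3.07e-05). CAMK4, a calcium/calmodulin-dependent kinase, had 0.645, 0.836 and 1.15 CPM with the UHRF1 siRNA, against 3.40, 2.67 and 3.30 CPM with control siRNA (-1.83 ± 0.21, adjusted p 6.21e-11). PARD6G, a cell polarity adaptor, had 0.753, 0.870 and 0.558 CPM with the UHRF1 siRNA, against 3.13, 2.03 and 2.23 CPM with control siRNA (-1.76 ± 0.23, adjusted p 3.26e-09). The groups did not overlap for any of these 4. KCTD12 also fell, at 1.86, 1.51 and 2.27 CPM with the UHRF1 siRNA, against 3.65, 2.67 and 2.49 CPM with control siRNA (-0.65 ± 0.19, adjusted p 0.00202).

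Ceruloplasmin led the rises. CP had 19.2, 21.4 and 19.9 CPM with the UHRF1 siRNA, against 3.24, 1.59 and 1.80 CPM with control siRNA (log2 fold change 3.19 ± 0.18, edgeR adjusted p 2.21e-09). ECEL1P2, a transcribed pseudogene, had 0.860, 0.920 and 0.727 CPM with the UHRF1 siRNA, against 0.0315, 0.0781 and 0.194 CPM with control siRNA (3.03 ± 0.48, adjusted p 2.78e-07). H19 had 0.842, 0.937 and 0.761 CPM with the UHRF1 siRNA, against 0.220, 0.156 and 0.113 CPM with control siRNA (2.36 ± 0.43, adjusted p 3.12e-06). SAMD11, a nuclear SAM-domain protein, had 1.31, 1.52 and 1.25 CPM with the UHRF1 siRNA, against 0.315, 0.328 and 0.389 CPM with control siRNA (1.98 ± 0.31, adjusted p 1.74e-07). At a higher level, APOE, the lipid-carrying apolipoprotein, averaged 77.1 ± 1.5 CPM with the UHRF1 siRNA and 25.6 ± 1.4 CPM with control siRNA (SD, n = 3 each; 1.59 ± 0.06, adjusted p 1.61e-30). The rise of ALDH1A1 was small, at 3.02 ± 0.31 CPM with the UHRF1 siRNA and 2.30 ± 0.10 CPM with control siRNA (SD, n = 3 each; 0.39 ± 0.16, adjusted p 0.0327), and was lost without any of 4 libraries, UHRF1 siRNA replicates 1 and 3 and control replicates 2 and 3, with DESeq2 and with no filter on low counts.

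Of the 43 genes of the set tested in all 3 comparisons, 4 were called lower in each: FARP1, MLXIPL, SMO and RASSF2. Of all 16614 genes tested in all 3, 1.28% were called lower in each. FARP1 had 13.1, 16.4 and 15.7 CPM with the SMYD3 siRNA, against 22.96, 22.2 and 22.7 CPM with control siRNA. FARP1 had 39.0 and 39.96 CPM with the ASO, against 49.7 and 51.8 CPM with PBS, and 5.59, 5.49 and 4.90 CPM with the UHRF1 siRNA, against 9.51, 10.1 and 8.61 CPM with control siRNA. Its log2 fold changes were -0.59 ± 0.09, -0.36 ± 0.06 and -0.82 ± 0.11 in that order of depletions (edgeR adjusted p 0.000114, 0.00114 and 1.45e-09). SMO changed by -0.88 ± 0.12, -0.50 ± 0.11 and -0.60 ± 0.11 (adjusted p 2.53e-05, 0.00617 and 6.75e-06), and MLXIPL by -0.49 ± 0.13, -0.67 ± 0.12 and -1.21 ± 0.15 (adjusted p 0.00726, 0.00227 and 4.27e-10). RASSF2, a Ras-association domain protein, changed by -0.58 ± 0.10, -0.44 ± 0.09 and -0.49 ± 0.11 (adjusted p 0.000222, 0.00456 and 0.000108). In each of the 4 genes, every depleted library lay below every control library of its own experiment. SMYD3 RNA was itself at 67.3% of control with the UHRF1 siRNA (log2 fold change -0.57 ± 0.09, adjusted p 3.38e-07), and UHRF1 RNA at 31.1% of control with the SMYD3 siRNA and 128.1% of PBS with the ASO.

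**Figure D5:**
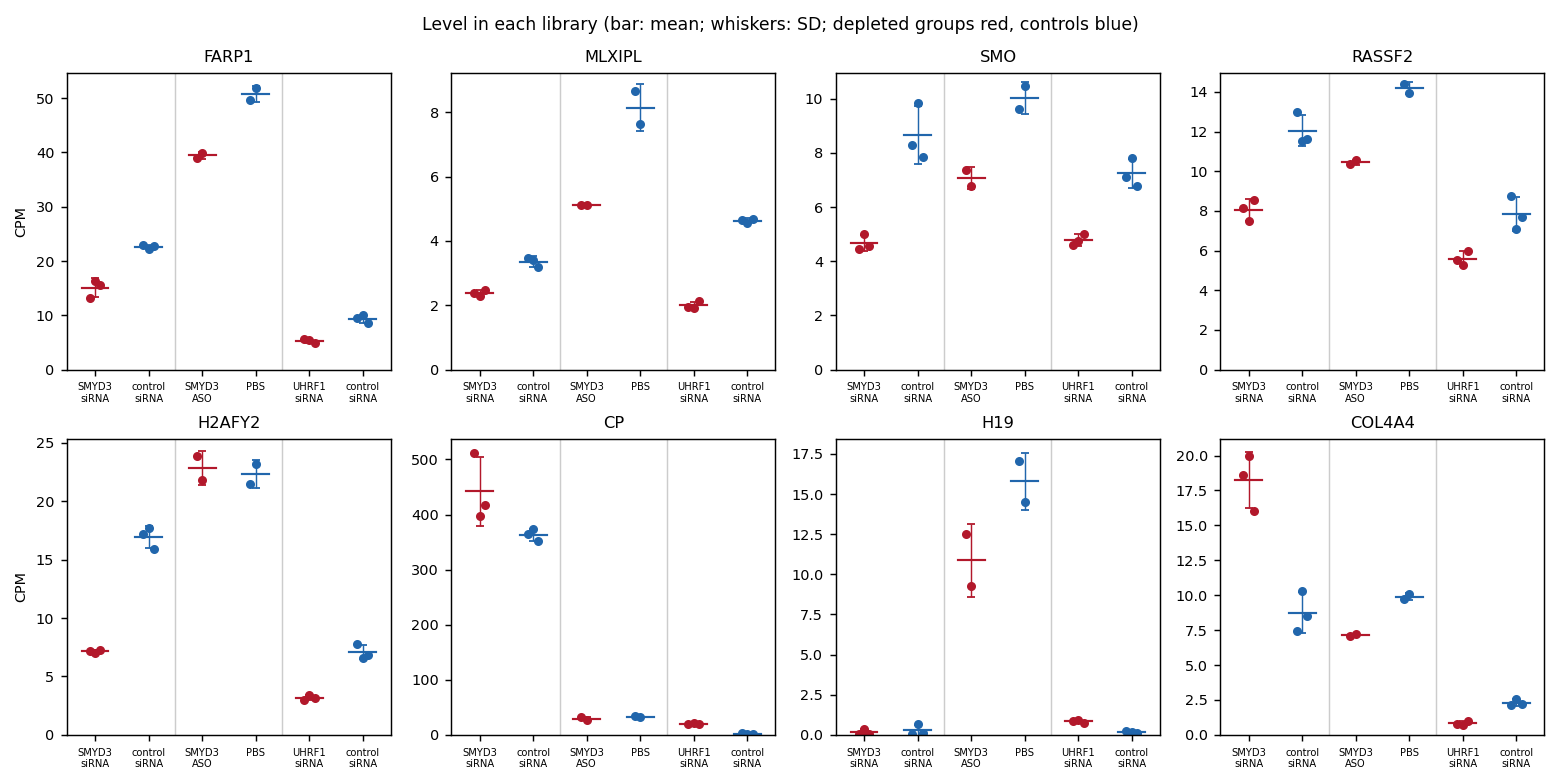
Level in CPM of FARP1, MLXIPL, SMO, RASSF2, H2AFY2, CP, H19 and COL4A4 in each library of the SMYD3 siRNA, ASO and UHRF1 siRNA experiments; red points are depleted groups, blue points their controls, bars the means and whiskers the SD. For the first 4 genes all red points lie below the blue points beside them, and CP differs more between the control groups, from 1.59 to 373 CPM, than within any of them.

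By role, the surface receptors and adhesion proteins were all tested in each comparison: 3 of 8 rose and 3 fell with the SMYD3 siRNA, 3 fell with the ASO, and 3 rose and 5 fell with the UHRF1 siRNA. Of the 12 genes of signalling, scaffold and cytoskeleton, 10 were tested each time, and 1 rose and 4 fell with the SMYD3 siRNA, 5 fell with the ASO and 5 fell with the UHRF1 siRNA. The 11 secreted or matrix genes, given above for the SMYD3 siRNA, had 3 falls with the ASO, where 1 was not tested. With the UHRF1 siRNA 5 of them rose and 2 fell, and 2 were not tested. Of the 6 metabolic genes, the SMYD3 siRNA raised 4 (ALDH1A1, UGT1A7, PRODH and CYP26A1) and the UHRF1 siRNA all 3 that were tested there (ALDH1A1, ACSS3 and THNSL2), while ACSS3 fell with the ASO. Several of these calls were not stable: UGT1A7 with the SMYD3 siRNA was lost with DESeq2 and without any of 3 libraries (SMYD3 siRNA replicate 2 and control replicates 1 and 2), CYP26A1 without SMYD3 siRNA replicate 2 or control replicate 1, ALDH1A1 with the UHRF1 siRNA as given above, and ACSS3 with the ASO without PBS replicate 1 (adjusted p 0.0932). Among the receptors, PLXDC1 with the SMYD3 siRNA was lost without control replicate 1. LPAR3 there was lost without SMYD3 siRNA replicate 3 or control replicate 2, and with no filter on low counts. PLXDC1 with the UHRF1 siRNA was lost without UHRF1 siRNA replicate 2 or control replicate 1. P2RY1 with the ASO (edgeR adjusted p 0.0488) was not called by DESeq2, nor without any of PBS replicates 1 and 2 and ASO replicates 1 and 2. H2AFY2, AC006058.1, PARD6G and NPY1R, the neuropeptide Y receptor, were lower with both siRNAs and not called with the ASO. Over all tested genes the shares called higher and lower were 24.2% and 24.4% with the SMYD3 siRNA, 11.4% and 10.3% with the ASO, and 32.0% and 32.7% with the UHRF1 siRNA. The roles were assigned after the set was known, and groups this small were not tested against those shares. Altogether 47 of the 51 tested anywhere were called in at least 1 of the 3 comparisons, as were 73.5% of the 20564 genes tested in at least 1. RAB26, DTNA and LINC01341 were tested in all 3 and called in none, AC091057.3 was tested in 2 and called in none, and 8 genes were tested in none: AC087190.3, TBC1D3H, AD000671.1, AC120057.2, ARMCX7P, AC145138.1, ITIH4 and PRICKLE4.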

How the data were processed

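RNA of HN-6 cells was sequenced as poly(A)-selected, stranded libraries, per the labels' protocols. The submitters' processing notes name the hg38 build, bcl2fastq and Bowtie; which program counted reads, on which annotation and with which filters is not given in the sources used here. Raw counts per gene were deposited for both siRNA experiments and for the ASO. For the knockout the authors deposited a signal, namely gene counts scaled by 1 factor per library; whole reads came back for 100% of these values (within 0.01) when the step of each column was divided out.

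Genes were matched to GENCODE release 29 (GRCh38) by Ensembl identifier, or by symbol with overlapping position in the ASO and UHRF1 siRNA tables; all 59 were found in each table. CPM are reads per 1000000 nuclear-gene reads, scaled by TMM factors in the count tables. Each count table was fitted alone with edgeR 4.0.16 (filterByExpr by group, TMM, robust quasi-likelihood F-test, two-sided), without a replicate block, and p-values were adjusted over all tested genes by the Benjamini-Hochberg method with a threshold of 0.05. The fit was tested on simulated data. Alternatives were DESeq2 1.42.0, upper quartile factors, no low-count filter, a replicate block and leaving out each library. The study calls the replicates biological; nothing says more of their origin. No 2 libraries of a group agreed within sampling noise. Bounds cover counting error only.

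The genes, lists and tests were chosen with earlier results of these data known. Named genes are the 12 with the highest parental mean, those with 0 reads in the clone, those nearest the limits, the 4 largest called changes per direction and comparison, those called lower in both SMYD3 depletions, adjacent genes of the set, and those below 0.1 CPM in every other control; others were chosen after their values were seen. Roles were assigned by hand.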

Additional observations from a re-analysis of the deposited data

How the results depend on the processing

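The size of the set follows its limits: 154 genes at a limit of 10%, 28 at 2%, 97 with a parental floor of 50, 25 with a floor of 200 and 87 on the scale of nuclear-gene CPM, which leaves out mitochondrial reads, but 56 to 62 when any library was left out, and 50 without the 9 genes that were near absent from every other control group (an alternative added after seeing the data). The number of ASO falls was 9 with DESeq2, 26 with the replicate block, and ran from 10 to 25 with single libraries left out; ASO rises numbered 1 with no low-count filter and with the replicate block, and 0 to 1 with libraries left out. The labels do not say whether a replicate number pairs the samples. Deviations of same-numbered libraries correlated at 0.23, 0.23 and -0.01 with the SMYD3 siRNA, where libraries of differing number gave -0.29 to 0.11. The ASO gave 0.11 for the same number and -0.11 for differing numbers, which mirror each other by construction with 2 libraries per group. With the UHRF1 siRNA all values were near 0. These values do not settle the pairing, so the block is given as an alternative and is no main result. With the block the SMYD3 siRNA counts were 22 and 15 and the UHRF1 siRNA counts 16 and 18.

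The median log2 fold change with the SMYD3 siRNA was 0.13 with upper quartile factors and 0.14 to 0.22 with libraries left out; with the ASO it was -0.34 to -0.17 and with the UHRF1 siRNA 0.071 to 0.17 with libraries left out. Uncalled genes changed sign when a library was left out: ECEL1P2 (-0.15 to 0.16 with the SMYD3 siRNA, -0.40 to 0.43 with the ASO), GAS6-AS1 (-0.030 to 0.39), H2AFY2 (-0.036 to 0.099), SAMD11 (-0.25 to 0.32) and UGT1A7 (-2.52 to 0.064) with the ASO, and LUM (-0.078 to 0.031) with the UHRF1 siRNA. Calls that held in every setting numbered 29 of 36 with the SMYD3 siRNA, 7 of 14 with the ASO and 29 of 33 with the UHRF1 siRNA. The cause of these shifts was not tested. Single libraries ended the calls of AL691482.3, PLXDC1, UGT1A7, CP, SAMD11, LPAR3 and CYP26A1 with the SMYD3 siRNA and of ALDH1A1, PLXDC1, GAS6-AS1 and MMP12 with the UHRF1 siRNA. With the ASO, single libraries ended those of ACSS3, LUM, ANK2, SELENOP, P2RY1 and MYO15A. DESeq2 did not call AL691482.3 and UGT1A7 with the SMYD3 siRNA, COL4A4, ANK2, SELENOP, P2RY1 and MYO15A with the ASO, nor ALDH1A1 and MMP12 with the UHRF1 siRNA. The planned promoter classes were not run because too few genes had a sequence. Low levels limit the UHRF1 results most: 14 of the 59 genes had too few reads to be tested there, in the deepest libraries.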
